A study of Mus musculus with 15 samples.

Results

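A set of 10 genes was followed across the RNA-seq libraries of this study. They were Il33, Il1rl1 and Myd88 of the interleukin-33 (IL-33) pathway, the metallothioneins Mt1 and Mt2, the calcineurin inhibitor Rcan1, the matrix and calcium genes Sdc4, Tgm2 and Rrad, and Phlda1. The deposited table lists 56980 genes, and these 10 were chosen by measured values. They include genes the study showed for D + Q in tibialis anterior (TA) muscle that varied together between mice of a group, and Il1rl1, Rrad and the metallothioneins were added to them. Their spread, their correlations and their D + Q difference in TA, and every comparison of them between TA and heart, are therefore given as descriptions with no test. Rrad in heart is treated in the same way, because the study also displayed it for that tissue.

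The study asked what the senolytic pair dasatinib plus quercetin (D + Q) does to dystrophic muscle and heart. All 15 libraries came from DBA/2-mdx mice, which lack dystrophin, each library from 1 mouse, and no wild-type library was included. TA muscles were taken at 5 months of age, after 2 months of D + Q (4 mice, all labelled male) or vehicle (4 mice, 2 labelled male and 2 female), starting at 3 months. Hearts were taken at 16 months, after 4 months of D + Q (3 mice, 1 labelled male and 2 female) or vehicle (4 mice, 2 of each sex), starting at 12 months. Both treatments were given 2 times per week. Tissue, age, length of treatment and sex makeup differed together between TA and heart and cannot be told apart.

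IL-33 is a cytokine kept in the nucleus of stromal and other cells and released when they are damaged. It binds ST2, the receptor encoded by Il1rl1, and signals through the adaptor MyD88, which also serves the IL-1 and most Toll-like receptors. In injured muscle, IL-33 from fibro-adipogenic progenitors acts on regulatory T cells that carry ST2. Metallothioneins are small cysteine-rich proteins that bind zinc and copper, and their genes are induced by metals, glucocorticoids and inflammation. RCAN1 inhibits the phosphatase calcineurin, and a short isoform of it is itself switched on by the calcineurin target NFAT.

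On GRCm39, Il33 lies at chr19:29902483-29938933 and Il1rl1 at chr1:40468730-40504575 (both plus strand), and Myd88 at chr9:119165000-119170486 (minus). Mt2 (chr8:94898819-94900207) and Mt1 (chr8:94905710-94906955) lie next to each other on the plus strand, and Rrad (chr8:105354695-105357990, minus) is on the same chromosome. Sdc4 (chr2:164266025-164285807) and Tgm2 (chr2:157958322-157988359) share chromosome 2, both on the minus strand, and Rcan1 (chr16:92188840-92267755, minus) and Phlda1 (chr10:111342147-111344506, plus) lie apart from the rest. Values are for whole genes, over all their annotated exons.

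The starts of Mt1, Mt2 and Rcan1 are shown because these genes are textbook examples of induction through a promoter. Each stretch holds 300 bases of GRCm39, from 250 before to 50 after the start of the canonical transcript, 5′ to 3′ on the strand of the gene. Mt1 lies at chr8:94905460-94905759 and Mt2 at chr8:94898882-94899181, both on the plus strand, and capitals mark the metal response core TGCACNC or TGCGCNC on either strand. Rcan1 lies at chr16:92196916-92197215 on the minus strand, and capitals mark the NFAT core GGAAA on either strand. This stretch is inside the gene, whose first base on that strand is 92267755. The Mt2 stretch is also inside its gene, whose first base is 94898819. Both therefore show the start of the canonical transcript and not of the whole gene, while the TPM adds all isoforms.
Mt1: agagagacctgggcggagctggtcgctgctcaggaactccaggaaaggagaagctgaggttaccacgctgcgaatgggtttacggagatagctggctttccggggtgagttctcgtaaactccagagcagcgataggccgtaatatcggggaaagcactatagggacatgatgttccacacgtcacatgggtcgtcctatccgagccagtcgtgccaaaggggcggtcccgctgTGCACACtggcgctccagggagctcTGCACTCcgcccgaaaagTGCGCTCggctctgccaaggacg
Mt2: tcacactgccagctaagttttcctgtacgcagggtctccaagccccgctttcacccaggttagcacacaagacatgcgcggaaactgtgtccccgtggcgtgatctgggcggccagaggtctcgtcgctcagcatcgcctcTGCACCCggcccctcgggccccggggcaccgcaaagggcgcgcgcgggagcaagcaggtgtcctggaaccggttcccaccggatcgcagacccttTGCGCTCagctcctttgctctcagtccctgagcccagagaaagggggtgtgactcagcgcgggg
Rcan1: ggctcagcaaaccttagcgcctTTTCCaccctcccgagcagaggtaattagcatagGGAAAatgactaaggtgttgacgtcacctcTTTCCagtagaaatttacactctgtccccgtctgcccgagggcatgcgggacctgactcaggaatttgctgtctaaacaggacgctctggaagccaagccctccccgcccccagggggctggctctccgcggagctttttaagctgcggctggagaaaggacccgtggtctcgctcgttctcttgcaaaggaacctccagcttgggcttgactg
The Mt1 stretch held 3 metal response cores, starting at positions -16, 9 and 27 from the start of the annotated canonical transcript. The Mt2 stretch held 2, at -109 and -14. No other transcript start was used, and cores outside these stretches were not counted. Over the 21757 promoters of this length, 27.4% held at least 1 such core, 7.14% at least 2 and 1.99% at least 3. Among the 10 genes, 4 held the core: Mt1, Mt2, Myd88 with 3 matches and Sdc4 with 1. Rcan1 held 3 NFAT cores, at -228, -194 and -164, a count that 10.2% of all promoters reached. This short core was found in 7 of the 10 genes and in 63.4% of all promoters, and the AP-1 motif TGANTCA in 2 of the 10 (Rcan1 and Mt2) and in 7.15% of all promoters. The motifs were counted separately, so matches of different motifs may overlap. Letters in a window describe sequence and do not show that a factor bound there.

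Values are TPM, a unit that corrects for transcript length and scales every library to 1 total. Read depth is lost in that scaling, and counting error could therefore not be stated for any value. In whole tissue, fewer cells of a type and less RNA per cell cannot be told apart. Between 21830 and 25378 genes were above 0 in a library. In heart the range was 22579 to 22818 with D + Q and 24089 to 25378 with vehicle, with no overlap. In TA it was 21830 to 24146 with D + Q and 23956 to 24393 with vehicle. The lowest TA libraries were D + Q-treated mice 2 (22166) and 3 (21830). The part of these numbers in the differences given below was not tested. All 6 fast skeletal fibre markers and all 6 satellite cell and regenerating fibre markers were higher in vehicle-treated TA than in vehicle-treated heart, and all 6 ventricular markers were lower, as the tissue labels state. In heart, up to 5 of those 6 satellite cell markers were at 0 in a single library. The vehicle-treated hearts held more atrial marker RNA (summed TPM 862 to 4260 over 4 genes, against 382 to 427 in D + Q) and more red-cell RNA (346 to 1231 over 5 genes, against 26.8 to 122). Sex-linked transcripts matched the labels in 14 of 15 libraries. D + Q-treated heart 3 was labelled male but had 47.2 TPM of Xist and 0.044 summed TPM over 4 Y-linked genes, so the D + Q differences and correlations in heart are also given without it. By these transcripts every D + Q-treated heart was of the female type, while vehicle-treated hearts were of both. Sex and D + Q can therefore not be fully told apart in heart. Nothing else is known of how the mice of a group relate, and the spread between libraries is the only measure of error.

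In TA the IL-33 pathway genes were high in the same 3 mice. Il33, the ligand, stood at 66.2, 4.84, 3.36 and 25.6 TPM in D + Q-treated mice 1 to 4 and at 6.04, 4.03, 27.2 and 2.75 TPM in vehicle-treated mice 1 to 4. Il1rl1, the receptor, stood at 11.9, 1.02, 0.789 and 21.4 TPM in the D + Q-treated mice and at 2.59, 3.98, 12.9 and 2.46 TPM in the vehicle-treated mice. Myd88, the adaptor, stood at 25.9, 5.60, 3.00 and 13.1 TPM against 4.79, 4.84, 11.9 and 2.77 TPM. D + Q-treated mice 1 and 4 and vehicle-treated mouse 3 were above the other 5 for each of these genes, and the treatment groups overlapped. The order of the 3 differed, since Il1rl1 was highest in D + Q-treated mouse 4 while Il33 and Myd88 were highest in D + Q-treated mouse 1. The gene-level TPM of Il1rl1 adds its membrane-bound and soluble forms, which were not separated here.

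The metallothioneins had the highest mean TPM of the set in TA. Mt1 stood at 2976, 352, 247 and 1734 TPM in the D + Q-treated TA muscles and at 243, 156, 1687 and 373 TPM in the vehicle-treated ones. Mt2 stood at 3303, 286, 263 and 2201 TPM against 245, 146, 1957 and 233 TPM. The same 3 mice were high, and none of the other 5 passed 373 TPM for either gene. Mt1 and Mt2 are neighbouring paralogs on chromosome 8, and how reads they share were divided between them is uncertain.

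Rcan1, whose product restrains calcineurin, stood at 357, 62.9, 26.2 and 211 TPM in the D + Q-treated TA muscles and at 46.4, 27.1, 209 and 37.7 TPM in the vehicle-treated ones. Its gene-level value adds the isoforms from its separate promoters. Rrad, a small GTPase of the RGK family that inhibits L-type calcium channels, stood at 354, 15.3, 6.32 and 159 TPM against 31.5, 11.1, 241 and 7.59 TPM, which spans 56.0-fold from lowest to highest. That was the widest relative range among the 10 genes. Sdc4, a heparan sulfate proteoglycan of focal adhesions and of satellite cells, stood at 94.1, 26.5, 24.1 and 59.4 TPM against 23.2, 20.5, 52.2 and 18.5 TPM. Phlda1, a gene induced by growth factors and stress, stood at 79.8, 15.6, 12.8 and 49.1 TPM against 14.0, 8.89, 51.9 and 8.24 TPM. Tgm2, the tissue transglutaminase that crosslinks matrix proteins, had the narrowest range, with 100.4, 46.1, 38.5 and 84.0 TPM against 40.5, 41.4, 66.5 and 27.0 TPM. D + Q-treated mice 1 and 4 and vehicle-treated mouse 3 were again the 3 highest for each of these genes.

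**Figure D1:**
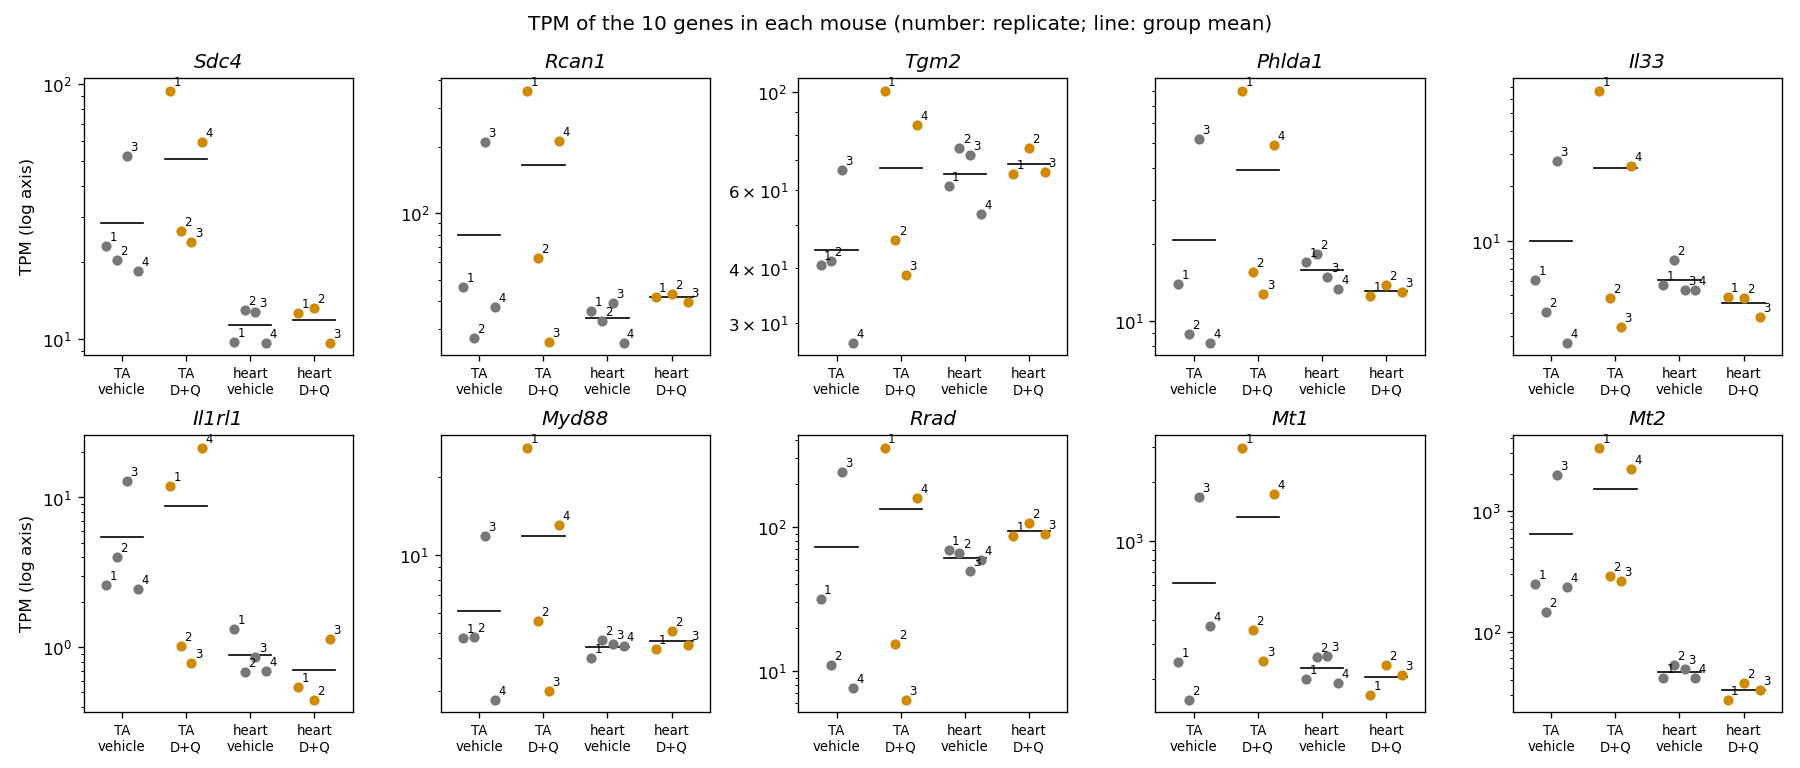
TPM on a log axis for the 10 genes in each of 15 mice, by tissue and treatment, with the replicate number beside each point and a line at the group mean. In TA, D + Q-treated mice 1 and 4 and vehicle-treated mouse 3 stand above the other 5 mice for all 10 genes, while heart points lie close together.

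For all 10 genes the 3 highest TA mice were the same, a property that 6.39% of the 16298 genes tested in TA shared (1041 genes). D + Q-treated mouse 1 was the highest for 9 genes and D + Q-treated mouse 4 for Il1rl1. The lowest mouse was vehicle-treated mouse 4 for 5 genes, D + Q-treated mouse 3 for 3 and vehicle-treated mouse 2 for 2. These counts follow from how the genes were chosen. The within-group SD on the log2(TPM + 0.5) scale ran from 0.60 for Tgm2 to 2.46 for Rrad in TA, where the median gene had 0.28. Tgm2 was thus more variable than 91.1% of genes and Rrad than 99.8%. In heart the same SD ran from 0.10 for Myd88 to 0.35 for Il1rl1, with 0.18 for the median gene. All 10 genes had the larger SD in TA, by 3.17-fold (Tgm2) to 12.6-fold (Rrad). Over 14914 genes tested in both tissues, 80.8% had the larger SD in TA, and the median ratio was 1.57.

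**Figure D2:**
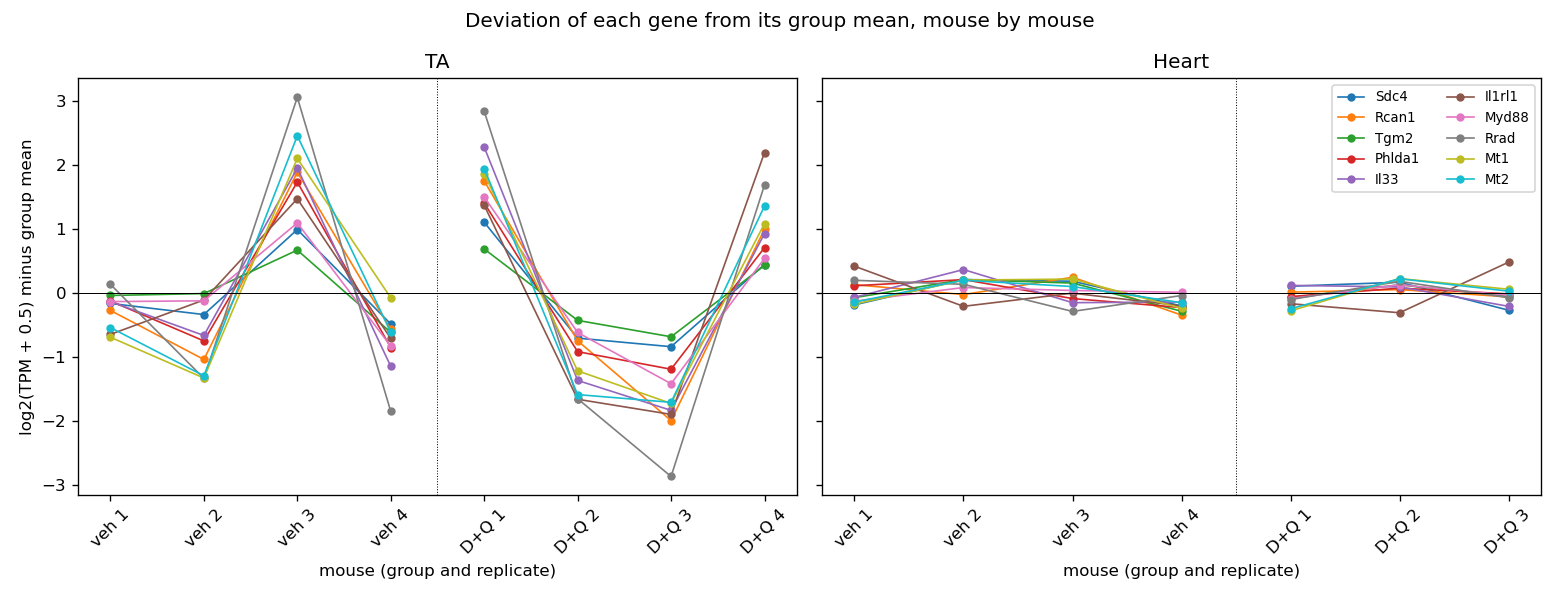
Deviation of each gene from its treatment group mean on the log2(TPM + 0.5) scale, mouse by mouse, in TA (left) and heart (right), with lines that only join the points of a gene. In TA the 10 lines deviate together, by up to about 3 log2 units in either direction, and in heart they stay near 0.

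Pairwise correlations put this in numbers. Over the 8 TA mice, with treatment group means removed, Pearson r over the 45 pairs had a median of 0.96 and ran from 0.85 (Tgm2 with Mt1) to 1.00 (Sdc4 with Il33), and all 45 were above 0.7. Over all pairs of genes tested in TA the median was 0.25, and 12.2% of pairs were above 0.7. Il33 correlated with Il1rl1 at 0.89 and with Myd88 at 0.98, Mt1 with Mt2 at 0.99 and Sdc4 with Rcan1 at 0.97. Il1rl1 was the member least like the rest, with r = 0.91 to the mean of the other 9. All pairs share the same 8 mice, so the 45 values are not independent of each other. With the surrogate variable removed as well as treatment, the median over the 45 pairs fell to 0.63.

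In heart the correlations were lower and of both signs. Over 7 hearts the median r was 0.37, against 0.20 for all pairs of genes tested, and it ran from -0.70 (Sdc4 with Il1rl1) to 0.97 (Mt1 with Mt2). Of the 45 pairs, 6 were above 0.7, against 11.6% of all pairs of genes, and 10 were negative. Exact two-sided permutation tests within treatment groups, with 144 arrangements and a smallest possible p of 0.00694, gave no pair past an adjusted p of 0.05 over the 45 pairs. Mt1 and Mt2 had r = 0.97 and rho = 0.96, with exact permutation p = 0.0208 and 0.0417 (adjusted 0.469 and 0.62), and r = 0.99 without the 2 hearts farthest from the Mt1 median. Ligand and receptor, Il33 and Il1rl1, had r = -0.58 and rho = -0.68, which did not pass the exact permutation test (p = 0.299 and 0.208, adjusted 0.707 and 0.62), and r = -0.38 without the 2 farthest hearts. For Il1rl1 and Myd88, r was -0.66 and rho -0.75 (exact permutation p = 0.215 and 0.139, adjusted 0.642 and 0.62), with r = -0.38 without the 2 farthest. For Il33 and Myd88, r was 0.37 and rho 0.21 (exact permutation p = 0.417 and 0.785, adjusted 0.750 and 0.990), with r = 0.039 without the 2 farthest. For Sdc4 and Rcan1, r was 0.48 and rho 0.50 (exact permutation p = 0.375 and 0.299, adjusted 0.750 and 0.724), and r turned to -0.20 without the 2 farthest hearts. Without D + Q-treated heart 3, the median over the 45 pairs was 0.44, with 9 above 0.7 and 10 negative. Over those 6 hearts r was 0.97 for Mt1 with Mt2, -0.34 for Il33 with Il1rl1, -0.78 for Il1rl1 with Myd88, 0.32 for Il33 with Myd88 and 0.49 for Sdc4 with Rcan1. Il1rl1 in heart was close to the 0.5 TPM used as the filter, between 0.446 and 1.33 TPM.

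**Figure D3:**
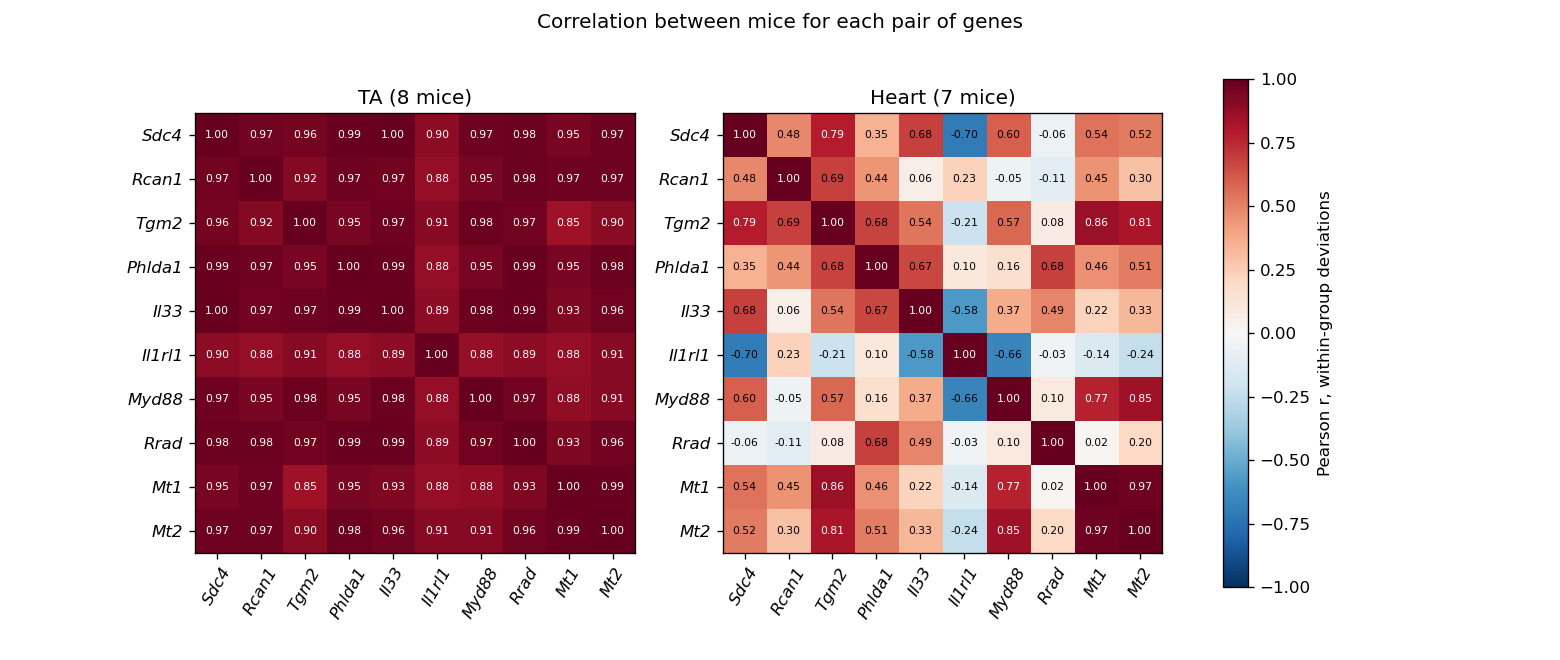
Pearson r between mice for each pair of the 10 genes, from log2(TPM + 0.5) with treatment group means removed, over 8 TA mice (left) and 7 hearts (right), on a colour scale from -1 to 1. TA values lie between 0.85 and 1.00, and heart values between -0.70 and 0.97.

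Genes whose TA pattern was closest to the mean of the 10 were ranked among 2252 genes with a within-group SD of at least 0.5. The 10 at the top had r between 0.990 and 0.994. They were Sbno2 (8.63 to 120.4 TPM), Sox9 (2.57 to 38.95 TPM), Gm13889, the zinc importer gene Slc39a14 (10.2 to 85.7 TPM), the chemokine genes Cxcl5 (0 to 7.87 TPM) and Ccl7 (0.531 to 121 TPM), 1810055G02Rik, the thrombomodulin gene Thbd (13.7 to 165 TPM), Uck2 and Fgl2 (16.3 to 504 TPM). In heart, of 944 genes ranked, the 10 closest had r between 0.900 and 0.937 and were Thbs3, Gp9, Rpl29-ps5, Gm22317, Gm41291, Chi3l1, Gm24305, Gm11196, Gm15460 and Pdk4. No gene was in both lists of 10.

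Other genes of the same pathways were set beside the 10 in TA by their correlation with the mean of the 10, where 11% of all genes tested were above 0.7. Of 22 IL-1 family and MyD88 pathway genes, 13 were above 0.7. The cytokine gene Il1b (r = 0.96) stood at 5.22, 0.306, 0.372 and 2.31 TPM in D + Q-treated mice and 1.20, 1.23, 4.91 and 0.251 TPM in vehicle-treated mice, so the same 3 mice were highest. The receptor gene Il1r1 (r = 0.94) ran from 5.47 to 33.5 TPM and the inhibitory kinase gene Irak3 (r = 0.91) from 4.52 to 17.1 TPM. The kinase genes Irak1 and Irak2 and the ligase gene Traf6 were at r = 0.23, 0.28 and -0.04. Among the 9 metal genes, 5 were above 0.7: the zinc importers Slc39a14 (0.99), Slc39a10 (0.95), Slc39a1 (0.85) and Slc39a8 (0.72), and Mt3 (0.81). Mtf1, which encodes the factor that reads the metal response core, had r = 0.70, just below that limit, over a narrow range of 5.78 to 8.11 TPM.

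Of 11 calcineurin and NFAT genes, 0 were above 0.7, and their median r was -0.05. Rcan2, the paralog of Rcan1, had r = 0.009 and ran from 47.1 to 70.1 TPM. Of 10 glucocorticoid response genes, only Cebpd was above 0.7 (r = 0.86), and Fkbp5 and Tsc22d3 were at 0.14 and -0.09. Hmox1, Mmp19, Adam8 and Ccl2, which were picked from among the further genes of the study's TA heatmap, were all above 0.7, and the choice of genes bears on that count. Immediate early and damage genes had 12 of 19 above 0.7, among them the cytokine signalling inhibitor gene Socs3 (r = 0.91, 5.58 to 364 TPM) and Myc (r = 0.94, 3.84 to 109 TPM). Fos, Fosb, Jun and Atf3 were below 0.7, at 0.57, 0.47, 0.30 and 0.49. Syndecan and transglutaminase genes had 2 of 5 above 0.7, and RGK and PHLDA genes 1 of 3.

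Cell type markers gave a mixed account of the 3 mice. Neutrophil markers summed to 29.7, 6.08, 7.52 and 27.4 TPM in the D + Q-treated TA muscles and to 4.71, 24.7, 25.9 and 6.69 TPM in the vehicle-treated ones, with the defining marker Ly6g at 0 in 6 of the 8. Vehicle-treated mouse 2, in which the 10 genes were low, also had a high neutrophil sum. Macrophage markers summed to 632, 711, 374 and 566 TPM against 475, 518, 544 and 300 TPM. Lyz2 (r = 0.34) was the largest part of that sum, at 403, 538, 257 and 355 TPM against 311, 326, 342 and 192 TPM. D + Q-treated mouse 2 was highest for Lyz2, as for the sum. The other macrophage markers had r of 0.93 (Mrc1), 0.88 (Itgam), 0.72 (C1qa), 0.69 (Cd68), 0.48 (Adgre1) and -0.05 (Csf1r). Thus 3 of 7 had r above 0.7. For satellite cell and regenerating fibre markers it was 1 of 6, for fibroblast markers 1 of 6, for red-cell markers 1 of 5, for neutrophil markers 2 of 5, and for mast cell, regulatory T cell, endothelial, fast fibre, ventricular and atrial markers none of those tested. Only 2 of the 5 regulatory T cell markers, Ikzf2 and Il2ra, passed the filter on low values, so Foxp3 was not assessed. The part of these cells in the levels of the 10 genes was not tested.

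For D + Q against vehicle in TA, the size of the difference for the 10 genes followed the model. With the study's design, in which 1 surrogate variable (a sample score estimated from the expression of all genes) was removed, log2 fold changes of the 10 ran from -0.67 (Il1rl1) to 0.49 (Mt2), with 8 positive and a median of 0.26, against -0.07 over all genes. With no covariate they ran from -0.01 (Il1rl1) to 1.27 (Mt2), with 9 positive and a median of 0.84. The sign of the surrogate variable is arbitrary and was set to follow the mean of the 10 genes. It stood at 0.70, -0.14, -0.42 and 0.23 in D + Q-treated mice 1 to 4. In vehicle-treated mice 1 to 4 it stood at -0.13, -0.20, 0.30 and -0.34. With that sign, its 3 highest mice were the 3 in which the 10 genes were high. Rrad turned from 0.77 ± 1.34 (SE) with no covariate to -0.36 ± 0.40 with the surrogate variable. Sdc4 went from 0.73 ± 0.45 to 0.35 ± 0.15, Il33 from 0.94 ± 0.92 to 0.16 ± 0.22, and Rcan1 from 0.91 ± 0.82 to 0.23 ± 0.28. Mt2 went from 1.27 ± 0.98 to 0.49 ± 0.43, Mt1 from 1.06 ± 0.88 to 0.36 ± 0.41, Phlda1 from 0.94 ± 0.67 to 0.39 ± 0.25, Myd88 from 0.69 ± 0.59 to 0.18 ± 0.16, and Tgm2 from 0.57 ± 0.34 to 0.30 ± 0.15. Il1rl1 went from -0.01 ± 0.90 to -0.67 ± 0.51. Single mice moved the values with the surrogate variable by more than 1.5 times. Without vehicle-treated mouse 3, Mt2 was at 1.11, Mt1 at 0.87, Rcan1 at 0.63 and Il33 at 0.50, and Rrad turned to 0.28. Without D + Q-treated mouse 4, Il33 was at 0.0207, Rcan1 at 0.0488, Mt2 at 0.22, Rrad at -0.66 and Il1rl1 at -1.21. Mt1 ran from 0.10 without vehicle-treated mouse 2 to 0.88 without D + Q-treated mouse 3, and Rcan1 reached 0.68 without that mouse too.

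As TPM, group means in TA were 25.01 ± 29.3 (SD, n = 4) against 10.01 ± 11.6 for Il33 and 1513 ± 1499 against 645 ± 876 for Mt2, with D + Q given before vehicle. For 7 of the 10 genes the SD was larger than the mean in at least 1 treatment group. None of the 10 had groups that did not overlap, where 1.52% of all genes tested did. By limma with Benjamini-Hochberg adjustment 0 of 16298 genes (0%) passed an adjusted p of 0.05 and an absolute log2 fold change of 0.5, and 488 genes (2.99%) had an unadjusted p under 0.05. The study used DESeq2 on counts with its own surrogate variable and reported genes changed both ways in TA at these limits. It named Il33, Myd88, Tgm2, Phlda1, Sdc4 and Rcan1 among those upregulated. The study's input, model and surrogate variable differ from those used here, and their part in the unlike outcome was not tested. The study also ran qPCR on some genes of each direction as a check of its sequencing. Its primer list holds a pair printed as Scd4, possibly Sdc4. No qPCR value was used here. All 4 D + Q-treated TA mice were labelled male, and among males alone, with 2 vehicle-treated mice left, the differences ran from -0.82 (Rrad) to 0.35 (Mt1).

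**Figure D4:**
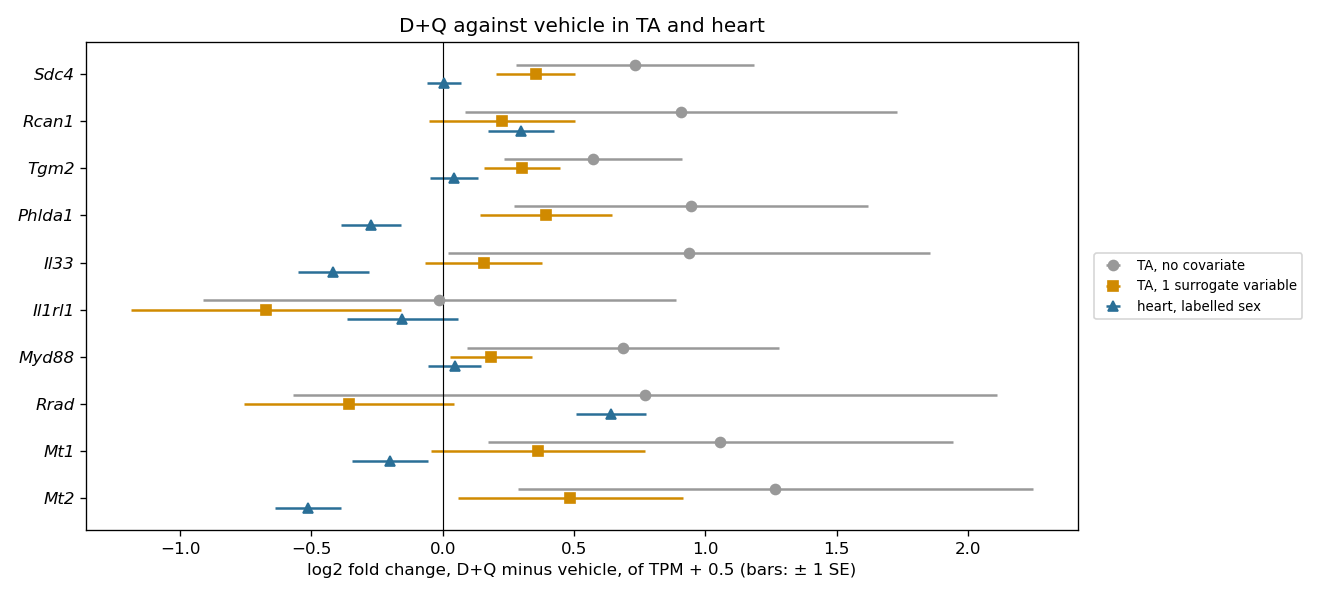
Log2 fold change of TPM + 0.5 between D + Q and vehicle for the 10 genes in TA with no covariate (circles), in TA with 1 surrogate variable (squares) and in heart with labelled sex (triangles), with bars of 1 SE either way. Removing the surrogate variable moved all 10 TA values to the left and shortened their bars.

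In heart, which the choice of the genes did not use except for Rrad, the 10 genes went either way and none passed the test. Rrad was higher in all 3 D + Q-treated hearts (87.3, 106 and 89.1 TPM) than in the 4 vehicle-treated hearts (69.3, 66.4, 49.4 and 58.7 TPM), a log2 fold change of 0.64 ± 0.13 (SE), given as a description. Mt2 was lower in all 3 D + Q-treated hearts (27.2, 37.9 and 33.1 TPM) than in the vehicle-treated hearts (41.3, 52.4, 48.9 and 41.0 TPM). Its log2 fold change was -0.51 ± 0.13 (limma, Benjamini-Hochberg adjusted p = 0.118). Il33 was also lower in all 3, with 4.93, 4.84 and 3.83 TPM against 5.69, 7.85, 5.34 and 5.38 TPM, a log2 fold change of -0.42 ± 0.13 (limma, adjusted p = 0.178). Rcan1 was higher in all 3, with 41.9, 43.1 and 39.8 TPM against 36.2, 32.5, 39.2 and 25.9 TPM, a log2 fold change of 0.30 ± 0.12 (limma, adjusted p = 0.275).

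The other members stayed within narrow ranges over the 7 hearts. Sdc4 ran from 9.65 to 13.3 TPM, Tgm2 from 52.8 to 74.7 TPM and Myd88 from 4.00 to 5.11 TPM. Phlda1 ran from 12.6 to 18.4 TPM and Mt1 from 165 to 262 TPM. Within each of these genes the highest heart was at most 1.58 times the lowest, while Il1rl1, at 1.33 TPM or less in every heart, spanned 2.98-fold.

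The 4 genes Rrad, Mt2, Il33 and Rcan1, of 10, had groups that did not overlap in heart, 2 higher and 2 lower, where 15.2% of the 16132 genes tested did (9.63% higher and 5.57% lower). Phlda1 gave -0.27 ± 0.11 (limma, adjusted p = 0.275), and Mt1 -0.20 ± 0.14, Il1rl1 -0.15 ± 0.21, Myd88 0.04 ± 0.10, Tgm2 0.04 ± 0.09 and Sdc4 0.01 ± 0.07, each with overlapping groups. No member passed the limma test with both thresholds, where 0.316% of genes did, and 17.6% of all genes had an unadjusted p under 0.05. Of the 9 genes other than Rrad, 4 had such an unadjusted p (Mt2, Il33, Rcan1 and Phlda1). The median over the 10 was -0.07, against -0.0025 over all genes. Atrial and red-cell markers were higher in every vehicle-treated heart than in any D + Q-treated heart, as given above, and their part in these differences was not tested. No member was called without D + Q-treated heart 3 or without the sex term. Without that heart the differences were -0.65 ± 0.15 for Mt2, -0.38 ± 0.18 for Il33, 0.25 ± 0.17 for Rcan1 and 0.75 ± 0.17 for Rrad, and Mt1 (-0.40 ± 0.16) and Il1rl1 (-0.36 ± 0.26) moved further down while Tgm2 turned to -0.07 ± 0.11. Il1rl1 then joined the 4 genes whose groups did not overlap, 5 of 10, where 25.1% of the genes tested did not overlap with 1 heart fewer.

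The pathway genes in heart gave 0 called by limma in any list, where 0.316% of all genes were called. In the IL-1 and MyD88 list, 6 of 21 were positive, with a median of -0.11, and 2 had groups that did not overlap (15.2% of all genes did not), Sigirr (0.28 ± 0.11) and Traf6 (-0.20 ± 0.09). In the calcineurin list 5 of 11 were positive and 3 had groups that did not overlap. These were Rcan2 (mean 189.6 against 162 TPM, 0.22 ± 0.06, limma adjusted p = 0.142) and the catalytic subunit gene Ppp3cb (0.17 ± 0.06, limma adjusted p = 0.212), both higher, and the calcineurin binding protein gene Cabin1 (-0.24 ± 0.08, limma adjusted p = 0.201), which was lower. Of 8 metal genes 3 were positive, with a median of -0.01. Of 19 immediate early and damage genes 3 were positive, with a median of -0.40 and 6 whose groups did not overlap, 5 of them lower, where 5.57% of all genes were lower in that way. Of 10 glucocorticoid response genes 5 were positive, of 4 syndecan and transglutaminase genes 1, of 3 RGK and PHLDA genes 1, and of Hmox1, Mmp19, Adam8 and Ccl2 1.

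Between vehicle-treated tissues, Mt2 and Sdc4 were the genes of the set beyond both limits of the call. The choice of genes used TA values of these mice, though no comparison with heart, so the differences are given as a description. In vehicle-treated mice Mt2 averaged 645 ± 876 TPM (SD, n = 4) in TA and 45.9 ± 5.68 TPM (n = 4) in heart, a log2 difference of 2.96 ± 0.82 (SE). The fit took 1 spread per gene over all 15 libraries, while the within-group SD of Mt2 was 1.80 in TA and 0.20 in heart. Each SE therefore also rests on mice outside the comparison and does not describe either tissue alone. Sdc4 averaged 28.6 ± 15.8 TPM in TA and 11.3 ± 1.83 TPM in heart, a log2 difference of 1.18 ± 0.38. Every vehicle-treated TA mouse was above every vehicle-treated heart for both genes and for Il1rl1, whose difference of 1.82 ± 0.76 was not beyond both limits. These 2 of 10, both higher in TA, compare with 36.7% of the 17868 genes tested that were called (22.6% higher in TA), and the 3 that did not overlap compare with 40.9%. Nothing is read from these counts. Leaving out single libraries gave between 1 and 3 genes beyond both limits. Sdc4 was no longer beyond them without vehicle-treated TA mouse 3 (0.85 ± 0.36), nor without vehicle-treated heart 1 or heart 4. The remaining 7 ran from -1.06 (Rrad) to 0.80 (Mt1), with Il33 at 0.15, which turned to -0.02 when libraries were rescaled by median-of-ratios factors. That rescaling moved the median gene by -0.16, from 0.16.

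In D + Q-treated mice the TA values helped to choose the genes, and the differences from heart are given as a description. Mt2 averaged 1513 ± 1499 TPM (SD, n = 4) in TA and 32.7 ± 5.33 TPM (n = 3) in heart, a log2 difference of 4.71 ± 0.88 (SE). Sdc4 averaged 51.0 ± 32.9 TPM in TA and 11.9 ± 1.93 TPM in heart, a log2 difference of 1.84 ± 0.41. Every D + Q-treated TA mouse was above every D + Q-treated heart for both genes and for Mt1, with a difference of 2.02 ± 0.80, and among all genes 46.7% did not overlap. Il1rl1, with overlapping groups, was at 2.03 ± 0.82. Mt2 and Sdc4 were the 2 of 10 beyond both limits of the call, where 37.3% of all genes were (21.4% higher in TA), and nothing is read from that count. Rrad and Tgm2 were the genes with a negative difference, -0.93 ± 1.20 and -0.14 ± 0.31. The number beyond both limits moved between 2 and 8 as single libraries were left out, and it was 8 without D + Q-treated TA mouse 3, the mouse with the lowest Il33 of its group. Differences of the D + Q effect between TA and heart, from the fit of all 15 libraries with no covariate, ran from 0.14 ± 1.64 (Rrad) to 1.75 ± 1.20 (Mt2), with a median of 0.64 against -0.07 over all genes. They are a description because their TA arm was used to choose the genes. All 10 were positive with every library in, but without D + Q-treated TA mouse 1 Rrad fell to -0.81 and Rcan1 to about 0, and without D + Q-treated TA mouse 4 Il1rl1 fell to -0.52. With the surrogate variable in TA, the TA values of Il1rl1 (-0.67) and Rrad (-0.36) also lay below their heart values (-0.15 and 0.64).

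Pathway lists had their own differences between vehicle-treated TA and heart, by limma, where 22.6% of all genes were called higher in TA and 36.7% in either direction. In the IL-1 and MyD88 list 3 of 23 were higher in TA, Map3k7 (0.60), Tirap (0.99) and Irak2 (0.98), and Il18r1 was lower (-0.93). Metal genes had 3 of 9 higher, Slc30a4 (1.02), Slc30a2 (3.18) and Mtf1 (0.63), and 2 lower, Slc39a8 (-0.65) and Slc30a1 (-0.52). Calcineurin genes had 7 of 11 higher, led by Ppp3ca (1.87), Ppp3cb (1.59) and Ppp3r1 (1.42), while Rcan2 was lower (-1.49). The calcineurin inhibitor Rcan1 itself, given as a description, stood at 0.76 ± 0.69 and was not beyond both limits of the call. Phlda3 (3.88) was higher, as were Sdc1 (0.81), Mmp19 (2.14) and Adam8 (1.91), 6 of 10 glucocorticoid response genes led by Sgk1 (2.34), Tsc22d3 (1.94), Klf9 (0.84) and Fkbp5 (1.34), and 6 of 20 immediate early and damage genes led by Cdkn1a (2.46), Gadd45b (2.00) and Nr4a1 (1.55), while Ankrd1 was lower (-3.91). In D + Q-treated mice, where 21.4% of all genes were called higher in TA and 37.3% in either direction, the counts were 8 higher and 1 lower of 23 IL-1 and MyD88 genes, 4 higher of 9 metal genes, 6 higher and 1 lower of 11 calcineurin genes, 8 higher of 10 glucocorticoid response genes and 12 higher and 1 lower of 20 immediate early and damage genes.

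The balance between the metallothioneins differed by tissue. The ratio of Mt2 to Mt1 TPM was 0.931 ± 0.225 (SD, n = 4) in vehicle-treated TA and 1.06 ± 0.19 (n = 4) in D + Q-treated TA, and 0.203 ± 0.012 (n = 4) and 0.161 ± 0.003 (n = 3) in the corresponding hearts. The lowest TA ratio, 0.626, was above the highest heart ratio, 0.215, while Mt1 itself overlapped between vehicle-treated TA (156 to 1687 TPM) and heart (191 to 262 TPM). Within heart, the 3 D + Q-treated ratios (0.165, 0.161 and 0.158) lay below the 4 vehicle-treated ratios (0.187 to 0.215). The ratio was looked at after its values were known and was not tested.

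**Figure D5:**
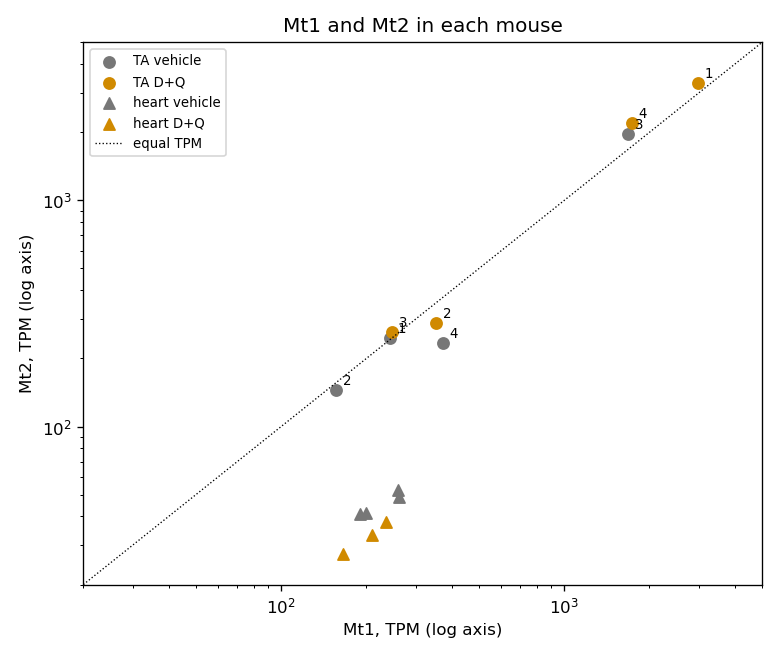
Mt2 against Mt1 TPM in each of 15 mice, both on log axes, with TA as circles (numbered by replicate), hearts as triangles and a dotted line where both are equal. TA mice lie along the line over a range of more than 10-fold, and hearts lie below it, near a ratio of 0.2.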

How the data were processed

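RNA-seq libraries of TA (8) and heart (7) were analysed, 1 per mouse. The authors used Trim Galore 0.6.10, then Salmon 1.10.3 with GRCm39 and a per-gene summary by tximport, and deposited the resulting TPM. The annotation release is not given in the sources used here. Symbols and positions come from GENCODE release 39, which held 56236 of the 56980 identifiers. TPM keeps no depth, so no counting interval is given, and count tests were not run.

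Genes reaching 0.5 TPM in 3 or more libraries of a fit were tested with limma 3.58.1 in R 4.3.3 on log2(TPM + 0.5), which understates changes of low genes, with a trend in the prior variance and Benjamini-Hochberg adjustment over all genes tested. A call needed an adjusted p under 0.05 together with a log2 fold change beyond 0.5 either way. The TA fit held 1 surrogate variable (5 rounds of re-weighting), the heart fit labelled sex, and tissues were compared in 1 fit of all 15 libraries, so these comparisons share samples. That fit took 1 spread per gene for all groups, though most genes had a larger SD in TA. Correlations used values centred within treatment groups, with exact permutation tests within groups in heart. The code was tested on simulated data. The genes, lists and tests were chosen with earlier results of these data known. Named pairs, the 10 genes closest to the set in each tissue and up to 4 called genes of a list by adjusted p followed a fixed rule. The ratio of Mt2 to Mt1 and the list genes described by their TA pattern were picked after their values were seen. Alternatives were other pseudocounts, filters, scaling, covariates, no trend, a replicate block and leaving out each library. Replicate numbers are shared between groups but belong to different mice.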

Additional observations from a re-analysis of the deposited data

Results flagged for a closer look

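In a group of 4 mice, a value was picked out when its gap to the nearest of the other 3 was too large a share of the group's whole range by Dixon's criterion. Of 30 groups of 4 looked at, 9 were picked out. Of these, 8 were vehicle-treated TA mouse 3, far above the other 3 vehicle-treated mice, at 52.16 TPM for Sdc4, 208.8 for Rcan1, 51.87 for Phlda1, 27.22 for Il33, 12.91 for Il1rl1, 241.2 for Rrad, 1687 for Mt1 and 1957 for Mt2. These 8 are the same mouse, and the genes were chosen for varying together between these TA mice, so the 8 restate that choice and test nothing. Among the 10 groups of vehicle-treated hearts 1 was picked out, with 7.854 TPM of Il33 in heart 2 against 5.34 to 5.69 in the other 3, where chance alone would pick out about 5% of groups. No D + Q-treated TA value was, since 2 of the 4 mice were high there.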

How the results depend on the processing

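Under other pseudocounts, filters, scaling, covariates, variance trend and the replicate block, no count of members beyond both limits of the call moved by over 1.5 times. For single genes, Il33 between vehicle-treated tissues turned to -0.0246 under median-of-ratios scaling. The replicate numbers did not pair the mice (same-number correlations -0.30 to 0.04 in TA and -0.04 to 0.03 in heart), and with them as a block Tgm2 in heart turned to -0.0117 with no change of call. Between vehicle-treated tissues, leaving out single libraries gave 1 to 3 members beyond both limits of the call (1 without vehicle-treated heart 1 or 4). Between D + Q-treated tissues it gave 2 to 8 (8 without D + Q-treated TA mouse 3, 4 without D + Q-treated TA mouse 2 or vehicle-treated TA mouse 3). These counts between tissues are descriptions and test nothing, because TA values helped to choose the genes. Sdc4 between vehicle-treated tissues ran from 0.85 without vehicle-treated TA mouse 3 to 1.35 without vehicle-treated TA mouse 4. Leave-one-out values changed sign in heart for Sdc4 (-0.0122 to 0.0191), Tgm2 (-0.0698 to 0.12) and Myd88 (-0.0029 to 0.10). Between vehicle-treated tissues they did so for Phlda1 (-0.63 to 0.24), Il33 (-0.50 to 0.53) and Myd88 (-0.13 to 0.52). Between D + Q-treated tissues they did so for Tgm2 (-0.36 to 0.0928) and Rrad (-1.87 to 0.0287). For D + Q in TA, Rrad changed sign (-0.66 to 0.28). In the difference of the D + Q effect, Il1rl1 (-0.52 to 0.84), Rrad (-0.81 to 1.15) and Rcan1 (-2e-04 to 1.25) did. None of these values was beyond both limits of the call. The median TA correlation was 0.929 by Spearman, 0.627 after the surrogate variable and 0.950 to 0.974 without single mice. In heart it was 0.193 without centring, 0.134 under median-of-ratios scaling and 0.147 to 0.490 without single hearts. Il1rl1 in heart lay near 1 TPM, where the counting error is unknown.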

Other observations

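The heart list closest to the 10 genes held Chi3l1 (0.959 to 5.60 TPM) and Pdk4 (106.7 to 527 TPM), and the low or structural RNA genes beside them (Gm41291 at 0.258 to 1.39 TPM, Gm11196 at 0 to 0.981 TPM, Gm22317 at 1176 to 2979 TPM). The zinc exporter gene Slc30a2, which had r = 0.28 with the 10 genes in TA, stood at 15.9, 20.9, 20.9 and 14.9 TPM in D + Q-treated TA mice 1 to 4 and at 21.4, 2.02, 16.8 and 1.70 TPM in vehicle-treated mice 1 to 4. The low values were those of the 2 females, vehicle-treated mice 2 and 4, and all 6 males were at 14.9 TPM or above, with no test made. Il6 was at 20.3 TPM in D + Q-treated TA mouse 1 and 5.23 TPM in vehicle-treated mouse 3, and at 0.836 TPM or less in the other 6. The macrophage marker Mrc1 (r = 0.93 with the 10 genes) stood at 45.01, 13.7, 12.9 and 43.1 TPM against 19.7, 24.4, 32.6 and 15.4 TPM, while Csf1r (r = -0.05) ran from 28.7 to 45.4 TPM with no such pattern.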
